A study of Sus scrofa with 25 samples.

Results

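The nuclear genes for the subunits of respiratory chain complexes III and IV and of the ATP synthase, complex V, were followed in muscle of 25 pigs on 3 levels of vitamin D3. Members were the genes whose Ensembl pig symbol was CYC1 or began with UQCR, COX4I, COX5, COX6, COX7, COX8 or ATP5 and that had a count in at least 13 of the 25 libraries. This gave 30 genes of the 25879 gene identifiers present in every file, 7 of complex III, 12 of complex IV and 11 of complex V. A 31st symbol, COX6B2, matched by name and had counts in 1 library alone, so it was left out. Other subunit genes, among them UQCRB, UQCRH, COX6B1, COX6C and ATP5F1B, were not among the symbols that matched. Sums given for a complex therefore cover its members here and not all its nuclear subunits.

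Each pig came from a Polish Large White sow crossed with a Landrace boar and was housed alone in a straw-bedded pen. Their feeds had the same protein and energy content. From day 85 of life, for 90 days, the control group (8 pigs) had no vitamin D3 in the feed (0 IU/kg), the D5000 group (8 pigs) had 5000 IU/kg and the D10000 group (9 pigs) had 10000 IU/kg, and the pigs of each litter were spread over the 3 diets. One QuantSeq FWD library (Lexogen) was made per pig. The method counts reads at the end of the transcript next to the poly(A) tail, so that levels of different genes can be compared as CPM, read counts scaled to the same total in every library, without a division by length. Which muscle was taken, and each animal's sex and litter, was not given in the sources used here. Replicate numbers are the animal numbers in the labels.

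Complex III takes electrons from ubiquinol and passes them to cytochrome c, complex IV passes them on to oxygen, and both pump protons across the inner mitochondrial membrane. Complex V lets the protons back and makes ATP. Most of their subunits are encoded in the nucleus. Cytochrome b of complex III, the catalytic core of complex IV and part of the membrane sector of complex V come from mitochondrial DNA. Several subunits of complex IV exist as a form found mainly in heart and skeletal muscle and a form found in most tissues, and a muscle sample therefore carries a mixture of both.

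Gene counts ran from 3310507 to 15177976 per library, and 24.9% to 70.6% of the reads in a file were assigned to genes. The labelled tissue was checked against its markers. All 11 of the 14 skeletal muscle markers that matched by symbol had counts in every library, with a summed level of 13621 to 264287 CPM and the lowest sum in D10000 replicate 27. Of the 3 of 5 cardiac markers that matched, NPPB was at 0 in 24 libraries and TNNT2 at 0 in 21, but MYH6, a cardiac myosin heavy chain, had counts in all 25. MYH6 stood at 668 to 16060 CPM, so the cardiac list as a whole was not absent. It was highest in D5000 replicate 24 and lowest in D10000 replicate 27. The sum of 6 slow fibre markers was also highest and lowest in those libraries, at 18425 and 621 CPM. Whether MYH6 reads mark cardiac or slow skeletal fibres here was not tested. D10000 replicate 27 stood apart, with 10489 CPM of 7 fat cell markers, against 57.2 to 280.7 CPM in the other 24 libraries. Of those 7 markers, LEP was at 0 in 20 libraries and PLIN1 in 12. In 4 libraries (D10000 replicates 2 and 7, D5000 replicates 11 and 18) under 45% of the reads were assigned to genes. Results that rest on these libraries are given with and without them.

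The 30 genes together held 7190 CPM on average, 0.719% of the gene counts. By diet the sum averaged 7537 ± 1476 CPM in control (SD, n = 8), 7264 ± 2295 CPM in D5000 (SD, n = 8) and 6815 ± 1730 CPM in D10000 (SD, n = 9). Control replicate 16 had the highest sum, 11011 CPM, and D10000 replicate 2 the lowest, 4379 CPM. The ranges of the 3 diets overlapped over most of their length. Without D10000 replicate 27 the D10000 mean was 6447 ± 1423 CPM (SD, n = 8), and over the libraries with 45% or more of the reads assigned the means were 7537 ± 1476 CPM in control (n = 8), 7951 ± 2229 CPM in D5000 (n = 6) and 7453 ± 1357 CPM in D10000 (n = 7). Because these are bulk samples, fewer cells of a type and less RNA per cell cannot be told apart in any of these levels.

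**Figure D1:**
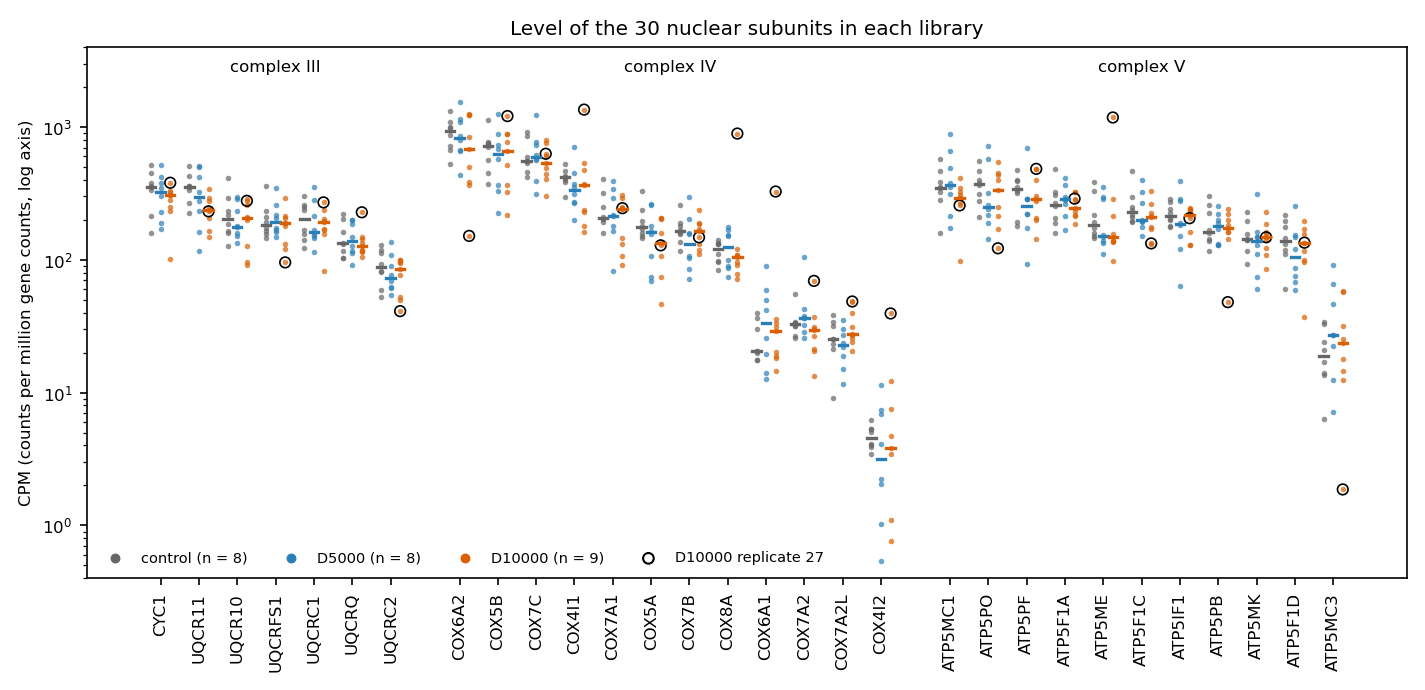
CPM of each of the 30 subunit genes in each of the 25 libraries on a log axis, grouped by complex, with points by diet and bars at the diet medians (a library with 0 counts is not drawn). Complex IV spans the widest range, with COX6A2 at a mean of 842 CPM and COX4I2 at 5.83 CPM, and the diets overlap at every gene.

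Complex III had a summed level of 1260, 1419 and 2452 CPM (lowest, median and highest) in control, 1050, 1273 and 2118 CPM in D5000, and 994, 1332 and 1633 CPM in D10000. Its most abundant member was CYC1 (ENSSSCG00000031918), cytochrome c1, the haem subunit that hands electrons to cytochrome c. CYC1 had 160, 356 and 518 CPM in control, 171, 323 and 519 CPM in D5000, and 101, 307 and 380 CPM in D10000. The next was UQCR11 (ENSSSCG00000013436), a small subunit of the complex, with 224, 354 and 510 CPM in control, 117, 299 and 506 CPM in D5000, and 148, 236 and 344 CPM in D10000. The highest D10000 library stayed below the control median of UQCR11, yet the ranges of both diets overlapped. UQCR10, another small subunit, averaged 207 CPM over all 25 libraries. UQCRFS1, the Rieske iron-sulfur protein, averaged 197 CPM, the core protein UQCRC1 196 CPM, the small subunit UQCRQ 144 CPM and the other core protein, UQCRC2, 83.3 CPM.

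Complex IV summed to 2856, 3374 and 4802 CPM in control, 1725, 3074 and 5295 CPM in D5000, and 1613, 3411 and 5236 CPM in D10000. The muscle form COX6A2 (ENSSSCG00000036789) was the most abundant of all 30 genes, with 524, 933 and 1320 CPM in control, 437, 827 and 1544 CPM in D5000, and 151, 684 and 1245 CPM in D10000. COX5B, a subunit on the matrix side that binds zinc, had 371, 723 and 1130 CPM in control, 226, 625 and 1251 CPM in D5000, and 218, 657 and 1208 CPM in D10000. COX7C, a small membrane subunit, had 420, 555 and 910 CPM in control, 314, 590 and 1223 CPM in D5000, and 301, 537 and 795 CPM in D10000. The groups overlapped for each of these 3 genes, and the lowest library of each gene was in D10000. COX4I1, the common form of subunit 4, averaged 407 CPM over all libraries, COX5A, a matrix-side subunit, 164 CPM, and the small membrane subunits COX7B and COX8A 160 and 144 CPM. At the low end stood COX7A2L, a relative of subunit 7a that links complexes III and IV in supercomplexes, with 27.4 CPM, and COX4I2, the form of subunit 4 known from lung, with 5.83 CPM.

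Complex V summed to 2041, 2408 and 3758 CPM in control, 1728, 2038 and 3620 CPM in D5000, and 1684, 2378 and 3001 CPM in D10000. ATP5MC1 (ENSSSCG00000017544) encodes subunit c, which forms the rotating ring in the membrane, and had 158, 349 and 574 CPM in control, 175, 364 and 881 CPM in D5000, and 97.8, 294 and 411 CPM in D10000. ATP5PO, a subunit of the stalk that joins the membrane and catalytic parts, had 212, 372 and 551 CPM in control, 145, 251 and 725 CPM in D5000, and 122, 336 and 543 CPM in D10000. ATP5PF, coupling factor 6 of the same stalk, had 178, 340 and 478 CPM in control, 92.2, 254 and 697 CPM in D5000, and 143, 285 and 484 CPM in D10000. None of the 3 genes separated the diets. ATP5F1A, the alpha subunit of the catalytic part, averaged 271 CPM over all libraries, and the central stalk subunits ATP5F1C and ATP5F1D 233 and 131 CPM. ATP5IF1, an inhibitor that binds the enzyme when its activity runs in reverse, averaged 210 CPM. The small membrane subunits ATP5ME and ATP5MK averaged 235 and 148 CPM, the stalk subunit ATP5PB 178 CPM and ATP5MC3, a second gene for subunit c, 28.3 CPM.

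The muscle form outnumbered the common form in 2 pairs of complex IV subunits. COX6A2 over COX6A1 had a median ratio of 33.3 over the 25 libraries. The ratio was 14.4 in the lowest control library, 40.2 at the control median and 64.0 in the highest; the corresponding values were 4.86, 29.9 and 91.3 in D5000 and 0.463, 21.8 and 84.4 in D10000. COX6A1 was the more abundant form in 1 library, D10000 replicate 27, where it had 327 CPM and COX6A2 151 CPM. COX7A1 over COX7A2 had a median ratio of 7.50, and the muscle form led in every library, from 1.73-fold in D5000 replicate 6 to 12.1-fold in D10000 replicate 1. The low value in D5000 replicate 6 went with 104 CPM of COX7A2, against 25.6 to 42.4 CPM in the other 7 D5000 libraries.

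Within subunit 4 the common form led. COX4I2 over COX4I1 had a median ratio of 0.0104, and COX4I2 was thinly counted, with 0 counts in D10000 replicate 2 (which allows up to 3 counts, or 0.906 CPM, there) and 507 counts in D10000 replicate 27. Its log2 ratio to COX4I1 had an SD of 0.28 in control (n = 8), 1.83 in D5000 (n = 8) and 1.93 in D10000 (n = 9), and the difference in spread was not tested. The 2 genes for subunit c encode the same mature protein in human. ATP5MC1 was the more abundant of the 2 in every library, with a median ratio to ATP5MC3 of 14.0, from 3.08 in D10000 replicate 30 to 134.7 in D10000 replicate 27. Genes of these families have near-identical copies in mammalian genomes, and 12.5% to 38.7% of the reads in a file aligned to several places and were assigned to no gene. How many of those reads came from the members was not measured, and the levels of family members are uncertain for that reason.

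**Figure D2:**
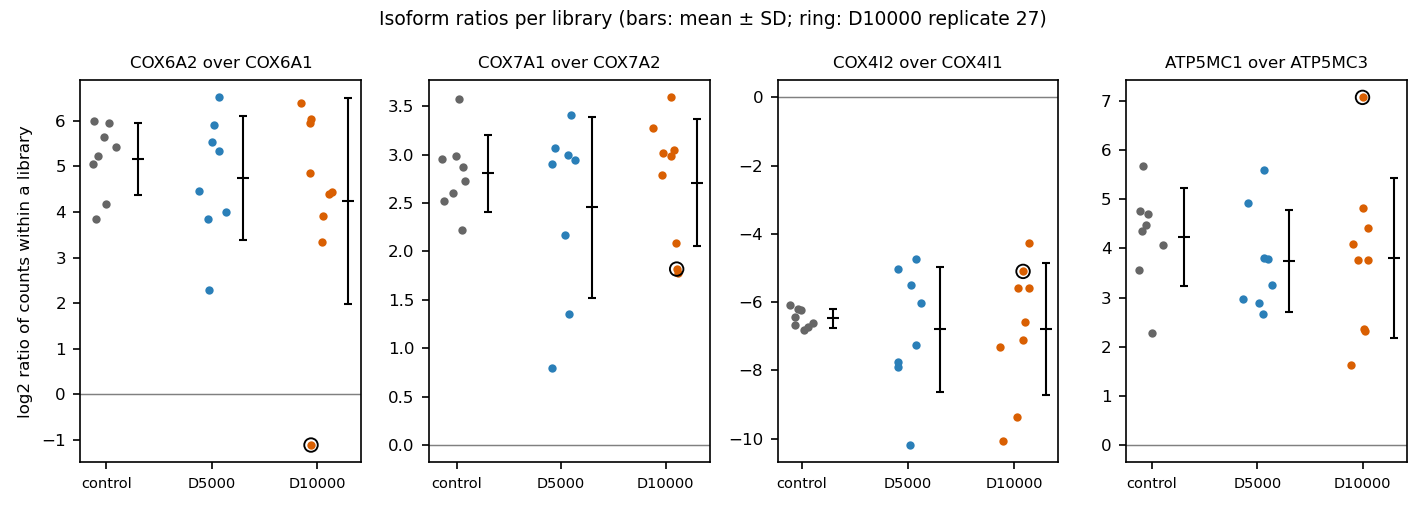
Log2 ratio of the 2 isoforms of a pair in each library, with the diets from control to D10000 in each panel, points for libraries and bars for the diet mean ± SD. COX6A2 over COX6A1 in D10000 replicate 27 lies at -1.11, while the other 8 D10000 libraries lie between 3.34 and 6.40.

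Isoform ratios were compared between diets as log2 ratios with 0.5 added to each count, by two-sided exact permutation tests over libraries, with the Benjamini-Hochberg adjustment over the 12 tests of 4 pairs and 3 contrasts. No ratio differed between diets beyond the spread between pigs. COX6A2 over COX6A1 averaged 4.24 ± 2.26 on the log2 scale in D10000 (SD, n = 9) and 5.17 ± 0.79 in control (SD, n = 8), a difference of -0.92 (exact permutation p = 0.319, adjusted p = 0.867). Without D10000 replicate 27 the same difference was -0.25 (exact permutation p = 0.602, adjusted p = 0.878). In D5000 the ratio averaged 4.74 ± 1.36 (SD, n = 8), which is -0.43 from control (exact permutation p = 0.460, adjusted p = 0.867).

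For COX7A1 over COX7A2 the difference was -0.35 for D5000 against control, -0.10 for D10000 against control and 0.25 for D10000 against D5000. For COX4I2 over COX4I1 the differences in the same order were -0.33, -0.30 and 0.02, and for ATP5MC1 over ATP5MC3 they were -0.50, -0.43 and 0.07. The adjusted p of these 9 exact permutation tests ran from 0.867 to 0.976. Without D10000 replicate 27 the difference of ATP5MC1 over ATP5MC3 was -0.84 for D10000 against control (exact permutation p = 0.142, adjusted p = 0.878).

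The question of the diets was whether vitamin D3 in the feed altered muscle transcripts. For the 30 genes, edgeR's quasi-likelihood test on the counts found no change in any of the 3 contrasts at an adjusted p under 0.05. All 30 genes passed the filter on low counts and were tested among 10992 genes, with the Benjamini-Hochberg adjustment over all of them. The share of all tested genes called at that threshold was 0% for D5000 against control, 0% for D10000 against control, 0% for D10000 against D5000 and 0% in the joint test of both doses. DESeq2 and limma voom also called none of the 30.

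**Figure D3:**
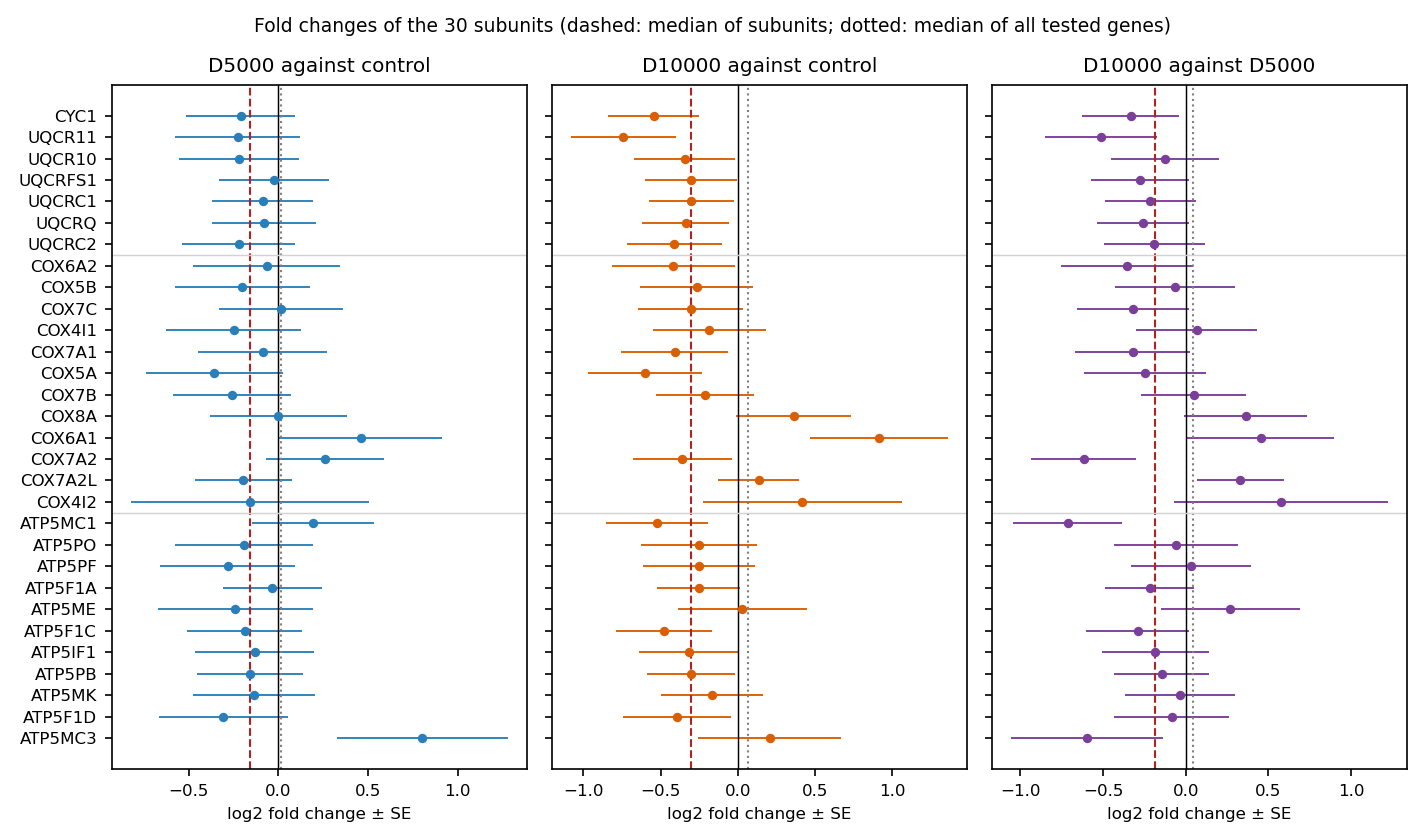
Log2 fold change of each subunit gene with its standard error from edgeR's quasi-likelihood fit, for D5000 against control, D10000 against control and D10000 against D5000. Most estimates lie left of 0, at medians (dashed lines) of -0.16, -0.30 and -0.19, where the medians of all tested genes (dotted) are 0.01, 0.07 and 0.04, and no gene passed the adjusted threshold.

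In D10000 against control, 24 of the 30 estimates were negative and their median was -0.30 on the log2 scale, beside a median of 0.07 and 42.8% negative over all tested genes. Every member of complex III had a negative estimate, with a median of -0.34. In complex IV, 8 of 12 were negative (median -0.24), and in complex V 9 of 11 (median -0.25). At an unadjusted p under 0.05 there was 1 negative gene and 1 positive gene among the 30 in edgeR, where the shares of all tested genes were 0.291% negative and 2.10% positive. DESeq2 also gave 1 of each sign, and limma voom 1 negative and none positive.

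The negative one was UQCR11, the small complex III subunit, at 238 ± 61.5 CPM in D10000 and 354 ± 88.6 CPM in control (SD, n = 9 and 8). Its log2 fold change was -0.74 ± 0.34 (SE, adjusted p = 0.9997 in edgeR's quasi-likelihood test). Leaving out single libraries moved the estimate between -0.86 (without D10000 replicate 20) and -0.61 (without control replicate 10). The unadjusted p of UQCR11 was no longer under 0.05 in 7 of these 25 fits, those without control replicates 10, 14 and 16 and without D10000 replicates 2, 7, 21 and 27. CYC1 averaged 280 ± 79.7 CPM in D10000 and 346 ± 116 CPM in control, with a log2 fold change of -0.54 ± 0.30. COX5A averaged 140 ± 58.5 CPM in D10000 and 196 ± 60.9 CPM in control, with -0.60 ± 0.37. For each of these 3 genes the ranges of both groups overlapped.

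The positive one was COX6A1, at 58.7 ± 101 CPM in D10000 and 25.3 ± 8.82 CPM in control (SD, n = 9 and 8), with a log2 fold change of 0.91 ± 0.45 (SE, adjusted p = 0.9997 in edgeR). Without D10000 replicate 27 the estimate was -0.14 ± 0.27, and the unadjusted p was no longer under 0.05 in 14 of the 25 fits that left out 1 library. Against D5000 it was 0.45 ± 0.44 with that library and -0.61 ± 0.27 without it (adjusted p = 0.9998 in edgeR). In the remaining 8 D10000 libraries COX6A1 had 14.5 to 35.6 CPM, inside the range of D5000.

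The same library set the sign of other estimates for D10000 against control. COX8A stood at 0.36 ± 0.37 with it and -0.40 ± 0.23 without it, COX4I2 at 0.42 ± 0.65 and -0.41 ± 0.61, and ATP5ME at 0.03 ± 0.42 and -0.54 ± 0.35. Without it 28 of the 30 estimates were negative, with a median of -0.34, beside 48.2% negative and a median of 0.02 over all tested genes. Control replicate 16, the library with the highest sums in all 3 complexes among controls, weighed on the median the other way. Without control replicate 16 the median was -0.15, with 24 of 30 still negative, beside 0.06 and 42.6% negative over all tested genes.

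In D5000 against control, 25 of 30 estimates were negative with a median of -0.16, beside 0.01 and 49.0% negative over all tested genes. None of the 30 had an unadjusted p under 0.05 in edgeR, DESeq2 or limma voom, while the shares of all tested genes in edgeR were 1.24% negative and 2.15% positive. All 7 members of complex III were negative (median -0.21), as were 9 of 12 in complex IV (median -0.12) and 9 of 11 in complex V (median -0.16). The smallest p belonged to ATP5MC3, with 37.6 ± 28.8 CPM in D5000 and 20.3 ± 9.63 CPM in control (SD, n = 8 each) and a log2 fold change of 0.80 ± 0.48 (adjusted p = 0.9986 in edgeR), which was 0.40 without D5000 replicate 6. Without control replicate 16 the negative estimates numbered 17 of 30, with a median of -0.00406, beside 48.0% and 0.02 over all tested genes. Without D5000 replicate 18 they numbered 16, with a median of -0.05, beside 48.6% and 0.01.

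In D10000 against D5000, 22 of 30 estimates were negative with a median of -0.19, beside 0.04 and 45.4% negative over all tested genes. By complex, 7 of 7, 6 of 12 and 9 of 11 were negative in III, IV and V. One gene had an unadjusted p under 0.05 and a negative estimate in edgeR, where 0.828% of all tested genes were so on the negative side and 2.11% on the positive side. DESeq2 gave 1 negative gene as well, and limma voom none. The gene was ATP5MC1, at 289 ± 85.2 CPM in D10000 and 432 ± 237 CPM in D5000 (SD, n = 9 and 8), with a log2 fold change of -0.71 ± 0.33 (adjusted p = 0.9985 in edgeR). Without D5000 replicate 6 it was -0.44, and this was 1 of 8 among the 25 fits leaving out a library in which the unadjusted p was no longer under 0.05. COX7A2 stood at -0.62 ± 0.32, and at -0.24 without D5000 replicate 6. Without D5000 replicate 24 the median over the 30 genes was -0.07, and without D10000 replicate 7 it was -0.08. The 3 contrasts share their samples pairwise, so the negative medians are not separate observations.

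**Figure D4:**
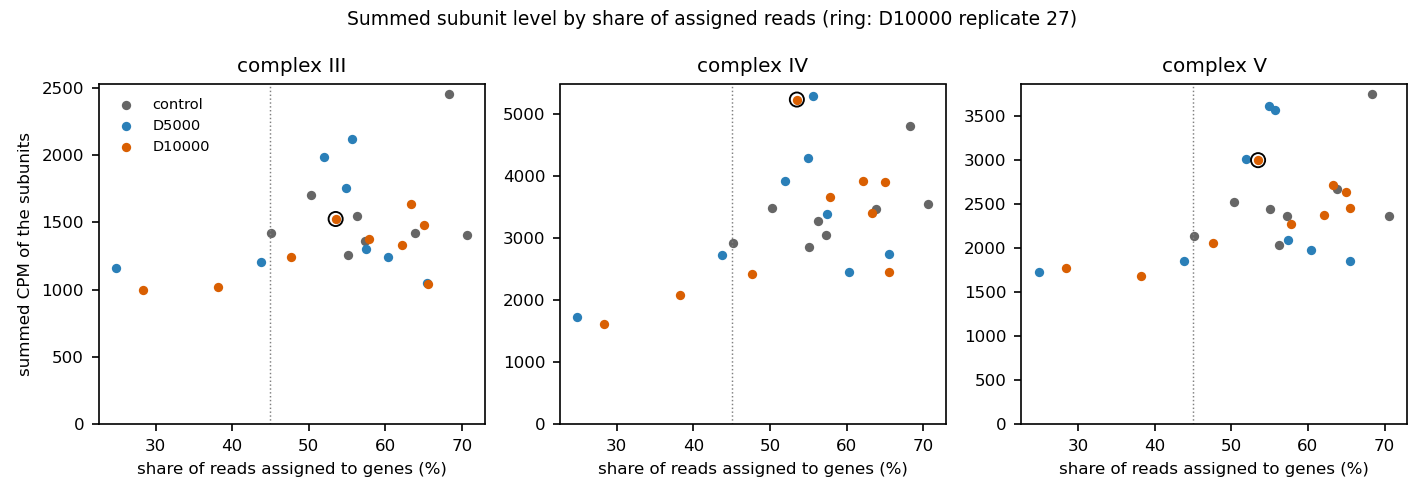
Summed CPM of the subunit genes of each complex against the share of reads assigned to genes, in percent, for the 25 libraries, with points by diet and a dotted line at 45%. For complex IV the 4 libraries under 45% lie at 1613 to 2735 CPM, and the other 21 at 2416 to 5295 CPM.

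The share of reads assigned to genes moved with the members' levels. The 45% line fell between D5000 replicate 11 (43.8%) and control replicate 23 (45.1%). The 4 libraries under 45%, which include no control and hold 3310507 to 5678226 gene counts each, had 4379, 4611, 4787 and 5794 CPM of the 30 genes, against 5652, 7332 and 11011 CPM (lowest, median and highest) in the other 21. Between these sets 23 of 30 members (76.7%) had a ratio of medians under 1, with a median ratio of 0.735, beside 34.7% of all tested genes and a median ratio of 1.36. In the same 4 libraries the summed liver markers were at 16481 to 23152 CPM, against 1515 to 13811 CPM in the other 21. Of the 5 liver markers, SERPINA1 was at 0 in 23 of the 25 libraries.

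For 4 of the 30 members, all 4 low-share libraries lay below all others, where 0.318% of all tested genes did so, and for none did they lie above all others, where 4.65% of all tested genes did. COX5A had 46.2 to 74.6 CPM in the 4 libraries and 107 to 328 CPM in the 21. UQCR11 had 117 to 165 CPM and 205 to 510 CPM in the same sets. COX7C had 301 to 404 CPM and 420 to 1223 CPM, and the inhibitor ATP5IF1 63.3 to 130 CPM and 152 to 389 CPM. A limit of 50% would add control replicate 23 and D10000 replicate 21 (47.6%), and none of these 4 genes would separate. Control replicate 23 had 146 CPM of COX5A and 267 CPM of UQCR11. D10000 replicate 1 (57.8% assigned) had 107 CPM of COX5A, and control replicate 9 (57.3%) had 224 CPM of UQCR11. On the other side, COX6A1 had a median of 47.6 CPM in the 4 libraries and 20.4 CPM in the 21, and ATP5MC3 42.1 and 22.5 CPM.

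With the assigned share as a covariate in the edgeR fit, the median over the 30 genes was 0.08 for D5000 against control. In that fit 7 of 30 estimates were negative in place of 25, beside a median of 0.02 and 47.3% negative over all tested genes. The members' median was -0.15 for D10000 against control, with 20 of 30 negative, beside 0.03 and 46.3% negative over all tested genes. For D10000 against D5000 it was -0.24, with 25 of 30 negative, beside 0.02 and 47.7%. At an unadjusted p under 0.05 the covariate fit had 2 negative members for D10000 against control, UQCR11 and COX5A, where 0.437% of all tested genes were so. For D10000 against D5000 it had 4, UQCR11 (-0.58 ± 0.23), COX5A (-0.44 ± 0.21), COX7A2 (-0.71 ± 0.28) and ATP5MC1 (-0.75 ± 0.30), where 1.52% of all tested genes were so. With D10000 replicate 27 also left out there was 1 for D10000 against control, UQCR11, beside 0.598% of all tested genes. In that fit 5 members were so for D10000 against D5000, beside 2.02% of all tested genes: UQCR11, ATP5MC1, COX7A2, COX6A1 and COX8A. None was called in either fit, with adjusted p in edgeR of at least 0.998. In libraries with at least 50% of the reads assigned, the 3 medians were -0.03, -0.13 and -0.16, beside 0.02, 0.04 and 0.07 over all tested genes. UQCR11 stood at -0.55 ± 0.24 for D10000 against control with the covariate and at -0.55 ± 0.27 in the libraries with 50% or more. How far the assigned share accounts for the levels was not tested.

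**Figure D5:**
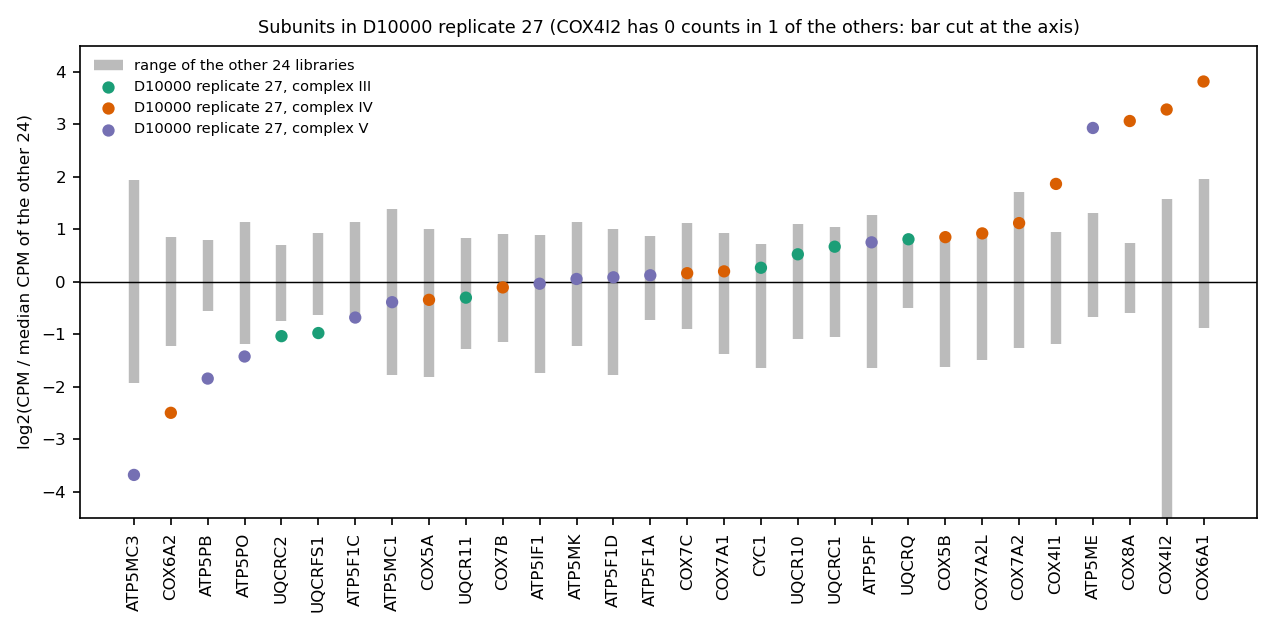
Log2 of the CPM of each of the 30 subunit genes in D10000 replicate 27 over the median of the other 24 libraries (points, coloured by complex), with the range of those 24 libraries as a grey bar. COX6A1 lies at 14.1 times the median and ATP5MC3 at 0.0783 times.

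D10000 replicate 27 lay outside the range of the other 24 libraries for 3 of 7 genes of complex III, 6 of 12 of complex IV and 4 of 11 of complex V. Of the 30 members 7 (23.3%) lay above all other libraries, a share close to the 22.6% of all tested genes, and 6 (20%) lay below them, where 7.59% of all tested genes did. The 7 above were COX6A1 (327 CPM, against 12.6 to 89.9 CPM in the 24), COX4I2 (39.4 CPM, against 0 to 12.2 CPM), COX8A (892 CPM, against 71.2 to 178 CPM), ATP5ME (1179 CPM, against 97.7 to 383 CPM), COX4I1 (1351 CPM, against 163 to 712 CPM), COX7A2L and UQCRQ. They include the common forms of subunits 4, 6a and 8, and COX7A2 also stood at 69.4 CPM, 2.17 times the median of the others. The 6 below were ATP5MC3 (1.87 CPM, against 6.29 to 91.6 CPM), COX6A2 (151 CPM, against 363 to 1544 CPM), ATP5PB (48.0 CPM, against 116 to 301 CPM), ATP5PO, UQCRC2 and UQCRFS1. The muscle form COX7A1, at 245 CPM, was inside the range of the other pigs. The fat cell marker ADIPOQ, the adipocyte hormone adiponectin, was at 1234 CPM in this library and at 0.651 to 52.9 CPM in the others, and the part of fat in these proportions was not tested. The subunits summed to 9762 CPM there, the highest of the 9 D10000 libraries.

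The fitted spread of the members between pigs was close to that of other genes of like abundance. Their biological coefficient of variation in the edgeR fit had a median of 0.483, from 0.390 (COX7A2L) to 0.869 (COX4I2). The median was 0.585 over all tested genes and 0.494 over the 699 genes at or above the members' lower quartile of abundance. The fit draws each gene's value toward those of genes of like abundance, so the closeness of 0.483 to 0.494 is partly built in. Over the 25 libraries, with diet means removed, the Spearman correlation of 2 members had a median of 0.28 over 435 pairs, beside 0.11 over pairs of all tested genes, and 351 of the 435 were above 0. These are descriptions over libraries that share depth and composition. The members' SD of log2 CPM had a median of 0.56, beside 1.01 over all tested genes. No correlation was taken over other genes of like abundance, so whether the difference between 0.28 and 0.11 is specific to the members was not tested. The closest pairs were UQCRFS1 with ATP5F1C (0.87) and COX4I1 with COX5B (0.82), followed at 0.80 by COX5A with ATP5MK, COX4I1 with COX7A1 and UQCR10 with COX5B. Without D10000 replicate 27 the median over the 435 pairs was 0.30, beside 0.11 over all tested genes. The closest pairs were then UQCR10 with ATP5F1C (0.88), UQCRFS1 with ATP5F1C (0.86) and COX7B with ATP5PF (0.85). The members that followed the others most were ATP5IF1, COX5A and UQCR11, with median correlations of 0.51, 0.50 and 0.49. Without D10000 replicate 27 they were UQCR10, ATP5IF1 and UQCR11, at 0.57, 0.57 and 0.56. COX6A1 (-0.10), COX4I2 (0.01) and ATP5MC3 (0.06), each the scarcer form of its pair, followed the other members least over the 25 libraries. COX7A2, also the scarcer form of its pair, had a median correlation of 0.32. COX6A1 ran against its muscle form COX6A2 at -0.44, and at -0.36 without D10000 replicate 27.

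Another pattern ran among the members. CYC1 went with UQCRC1 (0.73) and ATP5MC1 (0.61), while ATP5MC1 ran against ATP5PF (-0.40). Without D10000 replicate 27 these correlations were 0.71, 0.69 and -0.34. D10000 replicate 30 showed this pattern most, with the lowest CYC1, UQCRC1, ATP5MC1 and ATP5F1D of all 25 libraries, at 101, 82.3, 97.8 and 36.9 CPM. In the same library ATP5PF was at 481 CPM, ATP5PO at 543 CPM and COX7C at 795 CPM, above the medians of all 3 diets. D5000 replicate 29 had 171 CPM of CYC1 with the highest COX7C (1223 CPM), ATP5PF (697 CPM) and ATP5PO (725 CPM) of all libraries. Control replicate 28 had 160 CPM of CYC1, with the lowest CYC1 and ATP5MC1 and the highest ATP5PO of the controls. Its COX7C and ATP5PF were not the highest of the controls. Replicates 28, 29 and 30 are consecutive animal numbers from the 3 diets, and a part of sample order in the pattern was not tested.

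Genes that build or serve these complexes were examined beside the subunits. Of 52 listed nuclear genes for assembly factors and partners, 39 were tested and none passed the adjusted threshold in any contrast with edgeR. Their estimates were negative for 26 of 39 in D10000 against control (median -0.13), 29 of 39 in D5000 against control (median -0.18) and 21 of 39 in D10000 against D5000 (median -0.02). Over all tested genes 42.8%, 49.0% and 45.4% were negative in the same order. Only 1 had an unadjusted p under 0.05, the complex III assembly factor LYRM7, which helps insert the Rieske protein. It stood at -1.61 ± 0.61 for D10000 against control (adjusted p = 0.9997 in edgeR), where 0.291% of all tested genes had such a p and a negative estimate. In that contrast SLC25A4, the muscle ADP/ATP carrier, stood at -0.58 ± 0.35, CYCS, cytochrome c, at -0.43 ± 0.38, and NDUFA4, a protein bound to complex IV, at -0.45 ± 0.41. The related carriers stood at 0.56 ± 0.44 (SLC25A5) and -0.06 ± 0.27 (SLC25A6).

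The 6 mitochondrially encoded subunits of the same complexes were all tested and none was called in any contrast. COX3, a core subunit of complex IV, averaged 21994 CPM, above the mean sum of all 30 nuclear genes. For D10000 against control 6 of 6 estimates were negative with a median of -0.39, the most negative being CYTB, cytochrome b of complex III, at -0.60 ± 0.37. For D5000 against control 5 of 6 were negative (median -0.15), and for D10000 against D5000 6 of 6 (median -0.31). Over all tested genes 42.8%, 49.0% and 45.4% were negative in the same order of contrasts.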

How the data were processed

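Transcripts in muscle of 25 pigs were counted, 1 library to a pig. The deposited values are raw counts of reads for each Ensembl gene, whole numbers without sign of a normalization step. Per the labels' protocols, a Total RNA Mini kit gave the RNA. FastQC is named in the submitters' processing notes. No aligner, counter or genome build was given in the sources used here. The htseq-style totals at the end of each file (5 lines) were left out of all totals and fits.

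Gene symbols were taken from Ensembl and matched 14856 identifiers. No coordinates were used. The members, the lists and the named genes were chosen with earlier results of these data known. Levels are CPM over all gene rows. Genes were filtered with filterByExpr of edgeR 4.0.16 (minimum count 10, minimum total 15) in R 4.3.3, scaled by TMM and fitted with glmQLFit and glmQLFTest (robust) on the 25 libraries together, with a term for diet and no other. Fold changes on the log2 scale use a prior count of 0.125, and the common coefficient of variation between pigs was 0.669. Since litters were not in the labels, p-values measure the spread between pigs without litter. The scripts were tested on simulated counts.

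The text names the genes of the isoform pairs, the 3 most abundant genes of each complex, the 3 with the smallest p in each contrast, UQCR11, CYC1 and COX6A1, and the 3 with the lowest and the highest median correlation, 17 genes in all. Other genes were named after their values were seen. Alternatives were RLE scaling, library size alone, no filter, DESeq2 1.42.0, limma 3.58.1 (voom), the assigned share as a covariate or as a minimum of 50%, 2 diets only and leaving out each library. The fit without D10000 replicate 27 and with the covariate was chosen after seeing the data. Exact permutation tests used 12870 or 24310 splits (scipy 1.17.1). Floors of 3 counts cover counting error only.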

Additional observations from a re-analysis of the deposited data

Results flagged for a closer look

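Of 72 comparisons of a group's lowest or highest library with the rest on the log2 scale, 10 placed 1 library far from the others by Dixon's criterion. Chance flags about 1 in 20 of independent comparisons. These comparisons share libraries, and some of their genes were chosen by their values in these data. The 10 therefore cannot be set against that rate.

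D10000 replicate 27 accounted for 3 of the 10. Its log2 ratio of COX6A2 over COX6A1 was -1.11, with 3.34 to 6.40 in the other 8 D10000 libraries. Its COX6A1 was at 327 CPM, with 14.5 to 35.6 CPM in the others, and its ATP5MC3 at 1.87 CPM, with 12.4 to 58.6 CPM in the others. This is the library with 10489 CPM of fat cell markers.

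Control replicate 16 accounted for 4. Its summed levels were 2452 CPM for complex III (1260 to 1705 CPM in the other 7 controls), 4802 CPM for complex IV (2856 to 3555 CPM) and 3758 CPM for complex V (2041 to 2678 CPM). Its COX7A2 was at 55.4 CPM, with 25.6 to 34.2 CPM in the others. In this library 68.3% of the reads were assigned to genes. Its 6 slow fibre markers summed to 10466 CPM (1143 to 7200 CPM in the other 7 controls). The sum of its 9 fast fibre markers was 43389 CPM (20722 to 65380 CPM in the others). The highest slow fibre sum of all libraries, 18425 CPM, was in D5000 replicate 24, which also had the highest complex IV sum, 5295 CPM. The part of the fibre mix in these levels was not tested.

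D10000 replicate 30 had 97.8 CPM of ATP5MC1 (257 to 411 CPM in the other 8) and 101 CPM of CYC1 (234 to 380 CPM). D5000 replicate 6 had 104 CPM of COX7A2 (25.6 to 42.4 CPM in the other 7).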

How the results depend on the processing

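No paired analysis was possible because animal numbers are not shared between diets and litters are not in the labels. None of the 30 genes was called in any contrast under the 34 other settings, or in the joint test under those that apply to it. Leaving out each library in turn moved the median log2 fold change of the 30 genes between -0.37 and -0.15 for D10000 against control, between -0.25 and -0.00406 for D5000 against control, and between -0.29 and -0.07 for D10000 against D5000. The extremes came without D10000 replicate 26 and control replicate 16, without D5000 replicate 24 and control replicate 16, and without D5000 replicates 18 and 24. For D5000 against control the median was also -0.25 without control replicate 23, -0.05 and -0.08 without D5000 replicates 18 and 11, and -0.10 without control replicate 10. For D10000 against D5000 it was -0.08 and -0.11 without D10000 replicates 7 and 2. Over the other settings the medians ran from -0.37 to -0.13, from -0.20 to 0.08 and from -0.34 to -0.08 in the same order of contrasts. Scaling by library size alone put the median of all genes at 0.24 for D10000 against control and that of the 30 genes at -0.14. The members' median minus that of all genes was then -0.38, and -0.37 with TMM. The isoform ratios had adjusted p of 0.737 to 1 by exact permutation under every setting run. Limits: the common coefficient of variation of 0.669 leaves standard errors near 0.33 on the log2 scale. The library of 3310507 counts held no read of COX4I2. The 4 libraries with under 45% of reads assigned include no control, though the lowest control had 45.1%. The planned comparison of promoters and proteins was not run.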
